A study of Mus musculus with 6 samples.

Results

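Neut 2 was the smaller of the 2 neutrophil clusters that the authors annotated in the lungs of newborn mice. Its cells were taken as annotated, and they were 243 of 61839 cells (0.393%) and 7.62% of all neutrophils. The other neutrophil cluster, Neut 1, held 2944 cells. The lungs came from 36 C57BL/6 pups with no genetic change named in the labels, 6 in each of 6 groups set by postnatal age (P3, P7, P14) and by oxygen. Both sexes were used, and the study names their unequal numbers at P3 and P7 as a limit. Sex was not part of any comparison here. Pups were kept either in room air (21% O2, normoxia) or in 85% O2 (hyperoxia) from the day of birth until the lung was taken, so that the length of the exposure rose with age. Single-cell suspensions of perfused, digested lungs, with red cells lysed, were tagged per mouse, pooled, and profiled by droplet scRNA-seq. In this assay each captured mRNA molecule carries a unique molecular identifier (UMI), and counting UMIs counts molecules. Levels are given in CPM, the UMIs of a gene in every 1000000 UMIs of a cell type in a mouse. The assay reads a tag at the 3′ end of a molecule, so a level did not grow with the length of the transcript.

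Neutrophils mature in the bone marrow and load their granules in a fixed order. Azurophil granules, with myeloperoxidase (Mpo), elastase (Elane), proteinase 3 (Prtn3) and cathepsin G (Ctsg), are made first, in promyelocytes. Specific granules, with lactoferrin (Ltf), cathelicidin (Camp), neutrophilic granule protein (Ngp) and lipocalin 2 (Lcn2), follow in myelocytes and metamyelocytes under the transcription factor C/EBP epsilon (Cebpe), and gelatinase granules, with Mmp8 and Mmp9, come last. Mature neutrophils largely stop making granule mRNA, carry chemokine and cytokine receptors such as Cxcr2 and Csf3r, and make cytokines when activated in tissue. The calgranulins S100a8 and S100a9 are abundant over much of this path. Stefin A proteins inhibit cysteine cathepsins, and mice carry a tandem cluster of their genes.

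Camp, Ngp and Ltf, which set Neut 2 apart from every other cell type, lie within 1195 kb of chromosome 9. Their promoters and that of Lcn2 are shown because these granule genes were high together in the same cells. The windows run from 250 bases before to 50 bases after the RefSeq start (GRCm38.p6), 5′ to 3′ on the strand of the gene. Capitals mark every match, on either strand, to TTGCNNAA, a form of the sequence that C/EBP factors bind, and no other motif was searched.
Camp, chr9:109849407-109849706, minus strand: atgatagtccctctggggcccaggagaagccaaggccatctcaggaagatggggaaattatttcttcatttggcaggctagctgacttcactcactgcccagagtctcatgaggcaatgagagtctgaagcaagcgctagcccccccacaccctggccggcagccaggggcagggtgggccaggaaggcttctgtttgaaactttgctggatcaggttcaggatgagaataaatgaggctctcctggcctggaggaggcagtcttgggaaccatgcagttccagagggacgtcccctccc
Ngp, chr9:110419558-110419857, plus strand: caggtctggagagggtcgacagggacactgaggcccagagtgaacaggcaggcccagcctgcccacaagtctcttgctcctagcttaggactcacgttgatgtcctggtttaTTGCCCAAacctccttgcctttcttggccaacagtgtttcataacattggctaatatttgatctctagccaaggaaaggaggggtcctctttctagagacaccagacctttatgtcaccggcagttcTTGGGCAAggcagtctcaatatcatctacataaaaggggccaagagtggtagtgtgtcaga
Ltf, chr9:111019042-111019341, plus strand: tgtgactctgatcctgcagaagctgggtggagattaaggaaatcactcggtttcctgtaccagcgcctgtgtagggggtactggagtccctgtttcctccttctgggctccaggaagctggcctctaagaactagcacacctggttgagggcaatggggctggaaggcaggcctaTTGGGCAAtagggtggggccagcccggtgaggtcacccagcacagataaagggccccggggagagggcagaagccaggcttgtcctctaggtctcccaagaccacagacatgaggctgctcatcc
Lcn2, chr2:32387690-32387989, minus strand: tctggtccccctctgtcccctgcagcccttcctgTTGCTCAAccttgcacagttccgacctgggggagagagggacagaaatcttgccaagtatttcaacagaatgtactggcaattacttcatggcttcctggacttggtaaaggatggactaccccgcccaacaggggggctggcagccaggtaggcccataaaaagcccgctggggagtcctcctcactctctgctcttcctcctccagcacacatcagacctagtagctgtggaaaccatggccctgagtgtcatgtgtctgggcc
The Ngp window held 2 matches, the windows of Ltf and Lcn2 1 each, and that of Camp 0. Among the promoters of specific granule genes found in the table, 3 of 9 held the motif, beside 10.8% of all 32851 promoters. A match of this kind is a run of letters and not a shown binding site.

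The table held between 125 and 3036 cells per mouse. Neut 2 was found in 35 of 36 mice, with at most 27 cells in a mouse, and 20 mice with at least 5 Neut 2 cells (10 normoxic, 10 hyperoxic) entered all comparisons of genes. Of these 20 mice, 6 were P3, 10 were P7 and 4 were P14. The 4 P14 mice all came from 1 pool, P14 pool 1, and no pool held P14 mice together with another age, so that P14 and its pool cannot be told apart. Depth differed between pools, and the median Neut 2 cell held 5119 UMIs in the mixed pool of P3 with P7 mice (the shared pool), 5849 in P7 pool 1, 2448 in P3 pool 2, 3223 in P14 pool 1 and 4002 in P14 pool 2. Among the 243 cell barcodes of Neut 2, 5 also occurred in another library, and none was Neut 2 in both. The sample tag with the most UMIs was the assigned one in 92.2% of Neut 2 cells and 93.0% of Neut 1 cells.

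The markers of the label are described here with no test, because the clusters were drawn from such genes. Camp, Ngp, Ltf and S100a8 had their highest level of all 34 cell types in Neut 2. Summed over all cells, Camp reached 31341 CPM in Neut 2, 69.2 CPM in Neut 1 and 14.6 CPM in alveolar macrophages, the next type. At least 1 Camp UMI was seen in 97.9% of Neut 2 cells (median 4569 UMIs) and 2.24% of Neut 1 cells (median 1341 UMIs). In Cap endothelial cells, which should lack the gene, the share was 0.869%. After every cell was thinned to 1000 UMIs, which left out 1 Neut 2 cell and 775 Neut 1 cells, the shares for Camp were 93.8%, 1.71% and 0.277%. Most marker lists of other blood cells were at or near 0 in Neut 2. Over 20 mice, the macrophage list summed to 22.9 CPM, the lymphocyte list to 3.48 CPM and the basophil and mast cell list to 0.932 CPM, and Ccr2, a monocyte marker, was at 4.60 CPM. The monocyte list as a whole (6 genes) summed to 555 CPM in Neut 2 and 8069 CPM in monocytes, and most of it in Neut 2 was Plac8 (432 CPM). The epithelial list was not near 0 and summed to 1582 CPM in Neut 2 and 3672 CPM in Neut 1. It was made up almost wholly of the surfactant gene Sftpc and the secretoglobin Scgb1a1, each seen in 93.0% of Neut 2, 89.2% of Neut 1 and 91.9% (Sftpc) or 91.5% (Scgb1a1) of Cap cells. The 5 erythroid genes summed to 0 to 20267 CPM in normoxic and 0 to 1344 CPM in hyperoxic mice, with the highest value in 1 P7 mouse. With haemoglobin genes left out, the count of genes called for hyperoxia was 0 as with them, and their part in the other results was not tested.

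Specific granule genes had the highest ratios of Neut 2 to Neut 1, and inflammatory mediators the lowest. Because the clusters were drawn from these same genes, the values that follow are a description with no test. They are means over the 20 mice, and ratios are within mice, as log2 of CPM + 10, which bounds the ratio of a gene at 0 in some mice. Neut 2 cells held more mRNA than Neut 1 cells, with a ratio of median UMIs within mice of 2.20 to 3.69 (median 2.88, above 1 in 20 of 20 mice). The UMIs were also concentrated in fewer genes. The 10 most abundant genes took 41.4% of UMIs in Neut 2 and 23.2% in Neut 1, and at 1000 UMIs per cell the median number of genes was 388 in Neut 2 and 516 in Neut 1. CPM are shares of a total, and the median log2 ratio over the 1442 genes at 100 CPM or more in either cluster was −0.72. The ratios below are to be read against that value. Of those 1442 genes, 74 had a mean log2 ratio over 1 (5.13%), 546 had one under −1 (37.9%), and in 104 the ranges over mice did not overlap (7.21%), with 24 higher and 80 lower in Neut 2.

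Of the 10 specific granule genes, 7 had a log2 ratio over 1, and their summed share was 8.66% of UMIs in Neut 2 and 0.533% in Neut 1. Camp, the cathelicidin antimicrobial peptide, ranged from 15002 to 50014 CPM (median 32418) in Neut 2 and from 0 to 1290 CPM (median 22.5) in Neut 1. Its log2 ratio of 9.38 ± 2.00 (SD, n = 20) was the highest of the 1442 genes. Ltf, which binds iron, and Ngp, a protein of the cystatin fold, followed at 8.45 ± 1.39 and 8.32 ± 1.79. The clusters did not overlap for any of these 3 genes. Ngp was at 26343 ± 7850 CPM and Ltf at 7208 ± 2000 CPM in Neut 2 (SD, n = 20).

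Lcn2, which withholds iron by binding bacterial siderophores, was at 13542 ± 2685 CPM in Neut 2 and 775 ± 421 CPM in Neut 1 (SD, n = 20). Chil3, a chitinase-like protein, varied more between mice, from 278 to 7566 CPM in Neut 2. It was not particular to neutrophils, since alveolar macrophages had the highest level of all types (2550 CPM). Cd177, a surface glycoprotein of neutrophils, had a log2 ratio of 3.91 ± 1.06. Olfm4, known to mark only part of the neutrophils, was seen in 49.0% of Neut 2 cells and 25.6% of Neut 1 cells, with a ratio of 1.97 ± 1.37 that was positive in 18 of 20 mice. The list was not uniform. Haptoglobin (Hp) had a log2 ratio of −0.26 ± 0.33, the chitinase-like Chil1 one of 0.25 ± 0.40 and the peptidoglycan-binding Pglyrp1 one of 0.74 ± 0.42.

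Neighbouring steps of granule formation differed from this. The enzymes of azurophil granules were at or near 0 in both clusters. No Mpo UMI was seen in Neut 2, Elane was seen in 1 cell, Ctsg in 2 and Prtn3 in 4, and the list of 7 genes summed to 329 CPM, of which Cd63, a membrane protein that many cells use, made 294 CPM. Among gelatinase granule genes, the collagenase Mmp8 was higher in Neut 2 (1264 ± 419 CPM against 308 ± 111 CPM, ranges apart, log2 ratio 2.04 ± 0.86). The gelatinase Mmp9 overlapped (1255 ± 504 CPM against 1058 ± 299 CPM, higher in Neut 2 in 11 of 20 mice). Cebpe was at 379 ± 156 CPM in Neut 2 and 75.8 ± 41.0 CPM in Neut 1. Cebpb, the C/EBP factor of stress and inflammation, went the other way, at 1471 ± 419 CPM and 5506 ± 892 CPM, with ranges apart.

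Summed over their genes, calgranulins and stefins were the most abundant of the listed groups by role in Neut 2, ahead of specific granule genes. Over all Neut 2 cells S100a9 took 14.3% of UMIs and S100a8 9.88%. As means over the 20 mice, the pair together made 24.3% of UMIs in Neut 2 and 10.8% in Neut 1. S100a8 ranged from 80941 to 116542 CPM in Neut 2 and from 21906 to 73446 CPM in Neut 1. Its log2 ratio of 1.29 ± 0.36 was small beside that of the granule genes, so that S100a8 marked both clusters. The 8 stefin A genes summed to 10.3% of UMIs in Neut 2 and 4.70% in Neut 1. Within the family Stfa3 stood apart, at 14595 ± 3870 CPM against 1542 ± 735 CPM (log2 ratio 3.31 ± 0.56, ranges apart). Gm5416 had the opposite direction, at 1094 ± 530 CPM against 2293 ± 720 CPM, and was lower in Neut 2 in 19 of 20 mice. The stefin A genes lie side by side on chromosome 16 (chr16:36156811-36455392, mm10, GENCODE vM21) and are close copies of each other. Reads that fit several of them could be split or dropped in the authors' counting, so the level of each copy is uncertain.

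Genes of the NADPH oxidase, which makes superoxide, differed by subunit. Cybb, its catalytic subunit, had a log2 ratio of 3.91 ± 1.27 (1291 ± 428 CPM against 108 ± 119 CPM, ranges apart). The ratios of Cyba, Ncf1, Ncf4 and Rac2 lay between 0.21 and 0.41. Other genes with high ratios were Serpinb1a, an inhibitor of neutrophil serine proteases (3.81 ± 1.33), the interferon-inducible Ifitm6 (3.65 ± 0.70) and the surface antigen Ly6c2 (3.43 ± 0.87).

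All 20 genes of the list of inflammatory mediators had a log2 ratio under −1, with a median of −3.24. They summed to 0.482% of UMIs in Neut 2 and 4.12% in Neut 1. Il1b, the cytokine interleukin 1 beta, ranged from 0 to 1211 CPM in Neut 2 and from 5121 to 10562 CPM in Neut 1. The chemokines Ccl4 and Ccl3 and the prostaglandin synthase Ptgs2 had the lowest ratios of the 1442 genes, at −5.33 ± 1.28 for Ccl4, −5.18 ± 2.29 for Ccl3 and −5.18 for Ptgs2. Cxcl2, a chemokine for neutrophils, was at 2190 ± 2838 CPM in Neut 2 and 16463 ± 8380 CPM in Neut 1, and lower in Neut 2 in 20 of 20 mice although the ranges overlapped. Further genes at the low end were Gadd45b, a stress-induced gene (−5.08 ± 1.24), the secreted Fgl2 (−4.99 ± 0.81), the growth factor Csf1 (−4.48 ± 1.32), Ifitm1 (−4.38 ± 2.00) and the class I molecule H2-Q10 (−4.28 ± 1.43).

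Receptors of mature neutrophils followed the mediators, with 11 of 14 under −1. Csf3r, the receptor of granulocyte colony-stimulating factor, was at 114 ± 69.4 CPM in Neut 2 and 1070 ± 297 CPM in Neut 1, with ranges apart. The chemokine receptors Cxcr4 (−3.10 ± 1.37) and Cxcr2 (−1.73) and the pattern receptor Tlr2 (−1.87 ± 0.65) had the same direction. Ltb4r1, the high-affinity receptor of leukotriene B4, was the 1 receptor with a ratio over 1, at 560 ± 141 CPM against 128 ± 42.9 CPM, with ranges apart. The plot of listed genes in Neut 2 beside Neut 1 shows these groups together.

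**Figure D1:**
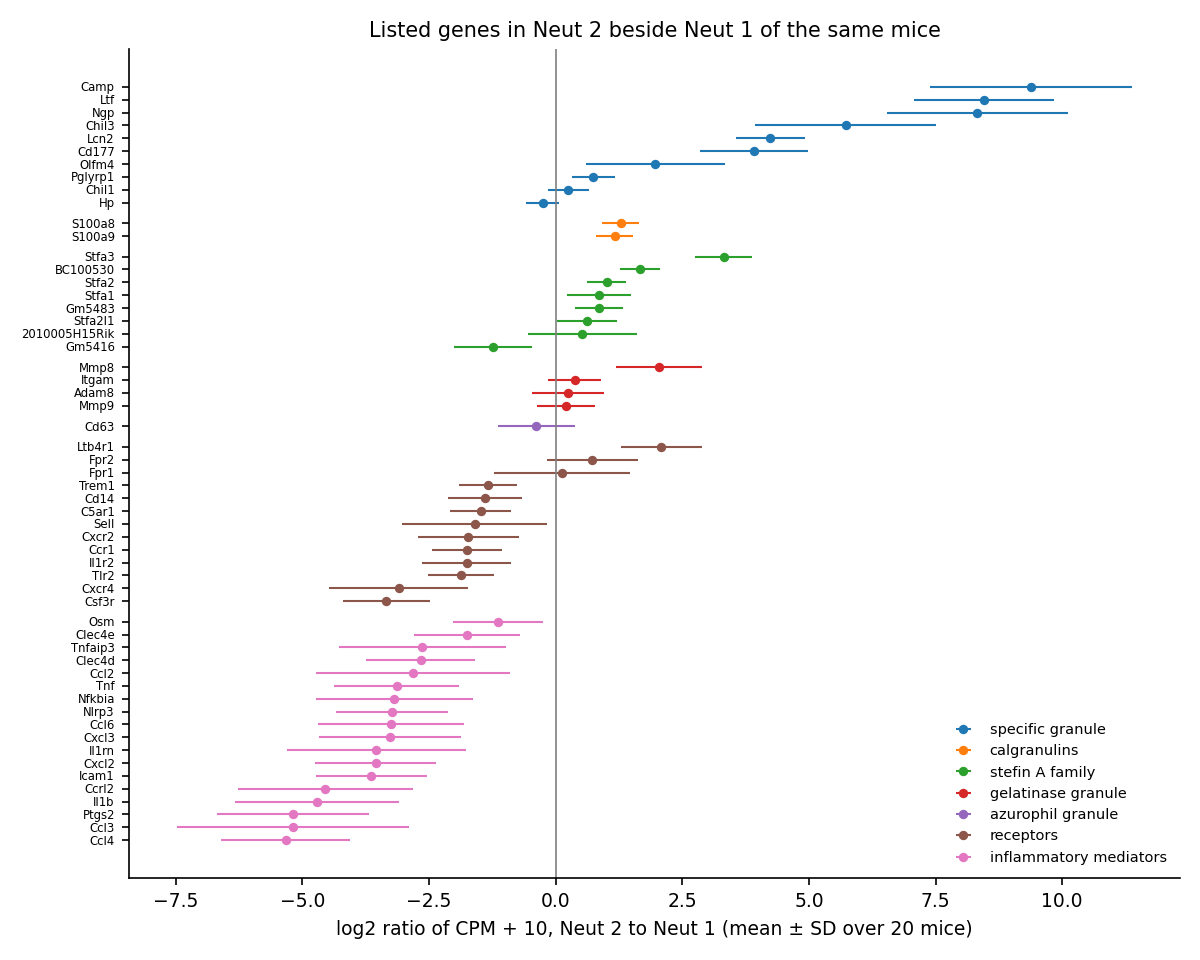
Mean log2 ratio of CPM + 10 in Neut 2 to Neut 1 of the same mouse (x axis) for the genes of 7 lists (y axis, coloured by list), with the SD over 20 mice as bars and a line at 0. Camp, Ltf and Ngp lie above 8, the calgranulins near 1 and every inflammatory mediator below −1.

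Neut 2 cells differed among themselves along the same axis. Across the 243 cells, the specific granule genes took from 0.762% to 18.2% of a cell's UMIs (median 7.70%) and the inflammatory mediators from 0% to 4.69% (median 0.220%). Spearman's rho between them was −0.602 over the cells, given as a description because both are shares of the same UMIs, cells come from shared mice and libraries, and the granule share also rose with a cell's UMIs (rho 0.418). A cut at 1% of UMIs from Ltf, Camp and Ngp left 201 cells at or over it and 42 under it, and 41 of the cells lay near the cut, between 0.5% and 2%. Only 2 of 2944 Neut 1 cells were over it.

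For several genes the 42 cells under the cut lay between the other 201 and Neut 1. Cxcl2 was at 7936 CPM in them, 1777 CPM in the other 201 and 16348 CPM in Neut 1, and Il1b at 1781, 347 and 8183 CPM. Cybb was at 210 CPM in them, 1441 CPM in the other 201 and 97.8 CPM in Neut 1, and Chil3 at 76.8, 2435 and 39.2 CPM. Other genes did not lie between and were highest in the 42 cells. Retnlg, a resistin-like protein, was at 37297 CPM in them, 12720 CPM in the other 201 and 6749 CPM in Neut 1. The same order held for Mmp8, at 1753, 1115 and 290 CPM, and for the gelatinase granule list, at 0.475%, 0.291% and 0.198% of UMIs. They kept the calgranulins and stefins of Neut 2, with S100a8 at 97795 against 98907 CPM and Stfa3 at 11247 against 15091 CPM. Their median of 3258 UMIs lay between those of the other Neut 2 cells (4876) and Neut 1 (1341). They were 26.5% of normoxic and 28.6% of hyperoxic Neut 2 cells at P3, 3.51% and 12.5% at P7, and 8% and 30.4% at P14, where the last 2 values rest on 25 and 23 cells. A range of this kind is not a type, and the shares were not tested.

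A few Neut 2 cells carried mRNA of dividing cells. With at least 3 of 10 genes of DNA synthesis and mitosis seen in a cell (Mki67, Top2a, Cdk1 and others), 9 of 243 Neut 2 cells were found (3.70%, exact 95% interval 1.71% to 6.91%). In Neut 1 there were 4 of 2944 cells (0.136%, interval 0.0370% to 0.348%), at a lower depth. The intervals cover counting error only. The 9 cells came from 6 mice of all 3 ages and held a median of 16463 UMIs, against 4534 in the other Neut 2 cells, and more UMIs let more genes be seen. They were granule-rich, with 6.21% to 12.7% of UMIs from Ltf, Camp and Ngp. Fcnb, a ficolin of immature neutrophils, was at 535 CPM in them and 80.5 CPM in the other Neut 2 cells, and the progenitor genes Ms4a3 and Prtn3 were at 160 and 87.8 CPM against 10.6 and 1.77 CPM. Mmp8 was at 71.8 against 1312 CPM and Cxcl2 at 199 against 2732 CPM. Mpo was at 0 in both. The authors' phase annotation called 63.8% of Neut 2 and 49.0% of Neut 1 cells G2M, far more cells than carried such mRNA.

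**Figure D2:**
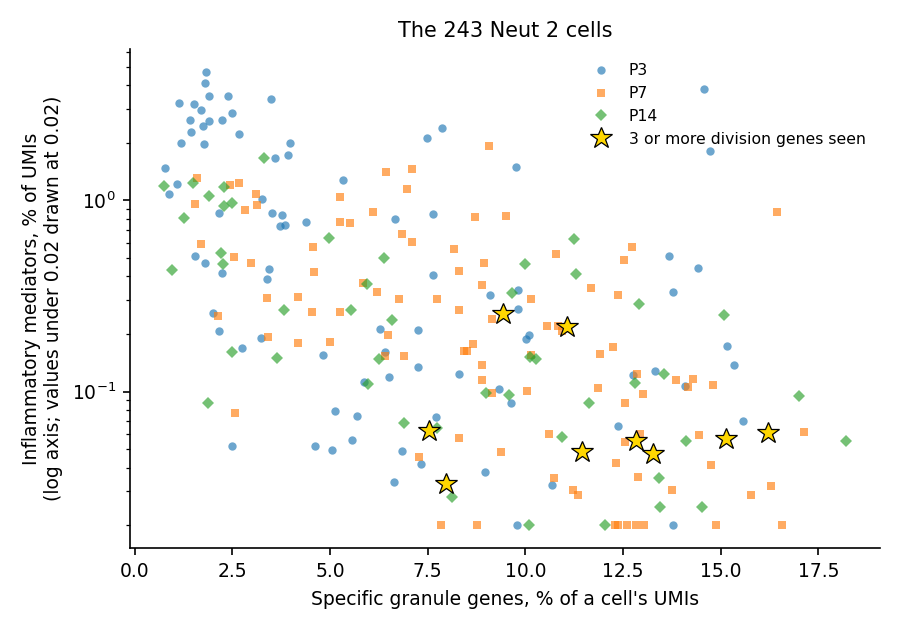
Each point is 1 of the 243 Neut 2 cells, with the share of its UMIs from 10 specific granule genes on the x axis and from 20 inflammatory mediators on the y axis (log scale, values under 0.02% drawn at 0.02%), marked by age. The 9 stars are cells with at least 3 division genes seen, with 7.54% to 16.2% granule mRNA and 0.0328% to 0.256% mediators.

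Neut 2 made up a smaller part of the neutrophils in hyperoxia at P7. In normoxia, 13.1% to 18.9% of the neutrophils of a P7 mouse were Neut 2 (median 14.4%). In hyperoxia the 6 mice were at 0%, 6.20%, 7.48%, 7.87%, 11.8% and 14.3%. The groups overlapped in 1 hyperoxic mouse. The means were 15.1% ± 2.09 and 7.93% ± 4.92 (SD, n = 6 each), a difference of −7.15 percentage points with p = 0.00866 by a two-sided exact permutation test and an adjusted p of 0.0260 over the 3 ages. Each pool held 3 mice per oxygen level of an age, and with the labels permuted only within pools (replicate block) the adjusted p of the exact permutation test was 0.045. The difference was −4.87 points in the shared pool and −9.43 points in P7 pool 1. The mouse at 0% had 125 cells and 7 neutrophils, so that the exact 95% interval of its share of neutrophils reached 41.0%, and 3 counts of its 125 cells would be 2.4%. Without it the difference was −5.57 points. Numbers behind each mouse were small, so that 4 Neut 2 of 29 neutrophils (13.8%) had an exact 95% interval of 3.89% to 31.7%.

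Neut 1 makes the rest of the neutrophils. At P7 it was 3.36% ± 1.63 of all cells in normoxia and 5.62% ± 1.59 in hyperoxia at P7 (exact permutation test, adjusted p = 0.110 over 34 types and 3 ages). At the other ages Neut 1 was 4.08% and 6.56% of all cells at P3 (exact permutation test, adjusted p = 0.0519), and it rose from 2.83% to 7.496% at P14 (exact permutation test, adjusted p = 0.0340). At P7 Neut 2 was 0.591% ± 0.276 and 0.461% ± 0.277 of all cells (SD, n = 6, exact permutation test, adjusted p = 0.672). Of the 102 such comparisons over all types and ages, 13.7% passed the threshold. By pool the P7 difference of Neut 2 in all cells was 0.067 points in the shared pool and −0.328 points in P7 pool 1. Counting only neutrophils with at least 1% of UMIs from Ltf, Camp and Ngp, in place of the annotation, gave 14.96% ± 2.06 and 6.97% ± 4.35, with ranges apart, a difference of −7.99 points and an adjusted p of 0.00649 (exact permutation test). This count is not independent of the annotation, since over all ages it took in 201 Neut 2 cells and 2 Neut 1 cells.

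At P3 and P14 the difference did not pass the test. P3 mice had 4.69% to 11.9% in normoxia (median 8.38%) and 2.63% to 16.3% in hyperoxia (median 4.37%), with adjusted p = 0.790 by the exact permutation test. The hyperoxic P3 mice split by pool, with 4.82%, 13.8% and 16.3% in the shared pool and 2.63%, 3.87% and 3.92% in P3 pool 2, and the difference was 2.49 points in the former and −3.89 points in the latter. P14 mice had 2.33% to 11.5% in normoxia (median 6.58%) and 0.532% to 10% in hyperoxia (median 2.58%), with adjusted p = 0.273 by the exact permutation test. The effect of hyperoxia was not shown to differ between ages. The difference of the effects was −6.45 points between P7 and P3 (adjusted p = 0.306), 4.25 points between P14 and P7 (adjusted p = 0.386) and −2.20 points between P14 and P3 (adjusted p = 0.516), by exact permutation of the oxygen labels within ages.

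Among normoxic mice the Neut 2 part of the neutrophils was highest at P7. The mean was 8.24% ± 2.86 in P3 mice, 15.1% ± 2.09 in P7 mice and 6.59% ± 3.48 in P14 mice (SD, n = 6 each). No P3 or P14 mouse reached the lowest P7 mouse. P7 exceeded P3 by 6.84 points and P14 lay 8.50 points below P7, each with an adjusted p of 0.00649 by the exact permutation test, whose smallest unadjusted p is 0.00216. P14 and P3 differed by −1.65 points (exact permutation test, adjusted p = 0.449). In hyperoxia the same 3 comparisons gave 0.391, −4.24 and −3.85 points (exact permutation test, adjusted p = 0.894, 0.234 and 0.308). P14 against P7 did pass in hyperoxia once the mouse with the fewest cells was left out, as given at the end. Ngp, a gene that defines the cluster, rose between P3 and P7 as given further on. With the pool as a block its rise was no smaller but missed the threshold. The size of a cluster between these ages cannot be told apart from the level of such genes. As a share of all cells, Neut 2 in normoxia differed by −0.398 points between P14 and P7 (exact permutation test, adjusted p = 0.0368). Of the 204 such comparisons of types between ages, 14.7% passed. The call for Neut 2 was lost as a percentage of myeloid cells (exact permutation test, adjusted p = 0.0742). It was also lost without the shared pool (exact permutation test, adjusted p = 0.0810), where 3 P7 mice stood against 6 P14 mice. The difference there was −0.597 points, and the unadjusted p of the exact permutation test, 0.0119, was the smallest possible. This loss thus does not show that the call rested on the shared pool. The plot of Neut 2 shares by mouse shows both denominators.

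**Figure D3:**
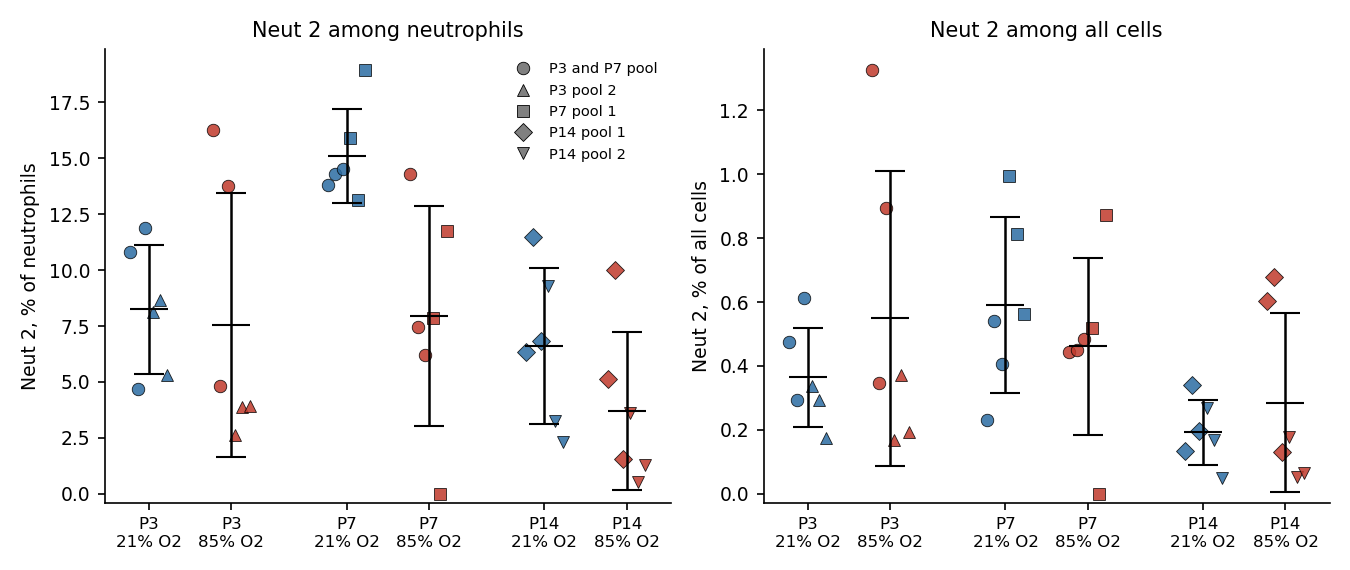
Neut 2 as a percentage of neutrophils (left) and of all cells (right) in each of 36 mice by age and oxygen, with the symbol giving the pool and the bars the mean ± SD of 6 mice. In the left panel the 6 normoxic P7 mice lie at 13.1% to 18.9%, above 5 of 6 hyperoxic P7 mice, while in the right panel the groups of an age overlap.

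No gene of Neut 2 passed the test for hyperoxia. With age in the model, 0 of 592 genes tested had an adjusted p under 0.05 and were seen in at least 10% of the cells of a group (edgeR quasi-likelihood test, Benjamini-Hochberg), so that the percent called was 0%. At an unadjusted p under 0.05 there were 28 genes, and DESeq2 called 0. The 20 summed libraries held 14409 to 147638 UMIs, and 592 genes were deep enough to be tested. In Neut 1 of the same mice 80 of 1922 genes were called (4.16%, of which 3.28% higher and 0.884% lower), from more cells per mouse. A test of the difference itself, the interaction of cell type and oxygen with mouse as a block, called 0 of 2175 genes (145 at an unadjusted p under 0.05, and 0 by DESeq2), so the response of the clusters was not shown to differ.

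Over all ages the markers overlapped between oxygen levels, as the plot of 4 markers by oxygen shows. Ngp was at 17390 to 40920 CPM (median 28591) in normoxia and 11849 to 36735 CPM (median 23008) in hyperoxia, a log2 fold change of −0.18 ± 0.15 (SE, adjusted p = 0.953, edgeR). Camp was at 21232 to 50014 CPM (median 33932) and 15002 to 39622 CPM (median 29363), with −0.17 ± 0.16 (adjusted p = 0.957, edgeR). Ltf had a log2 fold change of −0.10 ± 0.16 (adjusted p = 0.957, edgeR). S100a8 was at 80941 to 109200 CPM (median 91346) and 91255 to 116542 CPM (median 105960), with 0.23 ± 0.10 (unadjusted p = 0.0302, adjusted p = 0.888, edgeR). Its groups overlapped between 91255 and 109200 CPM. Within P14, with 2 mice per oxygen level from 1 pool, the groups of the 4 markers did not overlap. There Ngp was at 40920 and 32753 CPM in normoxia and 20711 and 20996 CPM in hyperoxia. Camp was at 50014 and 36897 CPM and at 25963 and 24223 CPM, Ltf was also lower and S100a8 higher in both hyperoxic P14 mice, and none of this was tested. With 2 mice against 2, values can easily lie apart by chance. How many of all genes did so in this split was not counted.

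**Figure D4:**
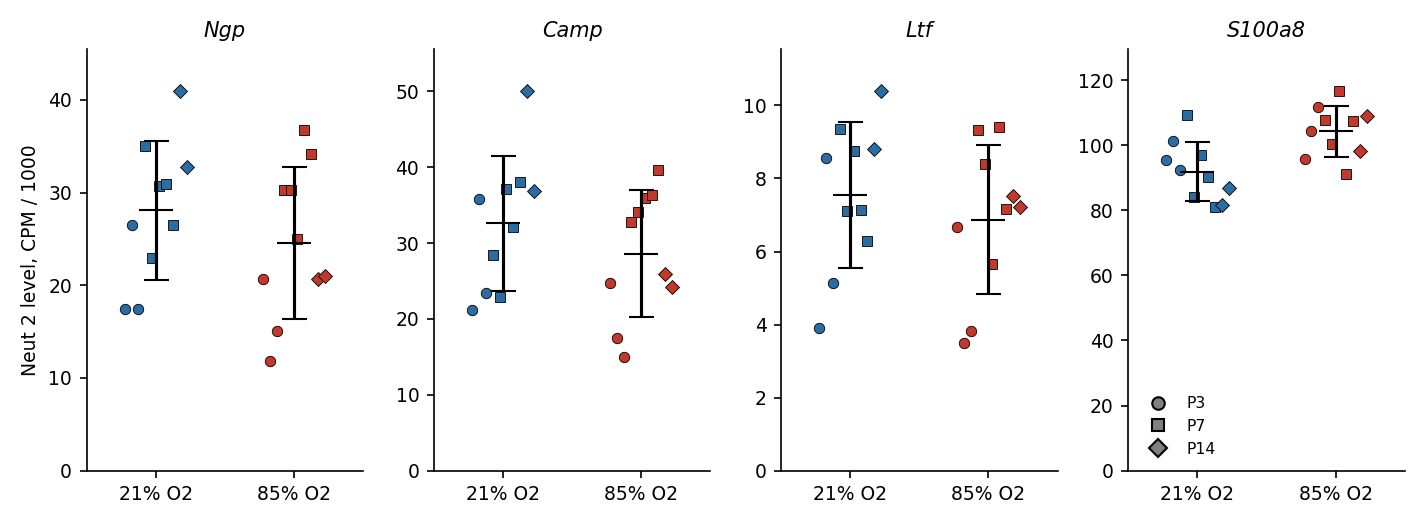
Level of Ngp, Camp, Ltf and S100a8 in Neut 2 (CPM divided by 1000, axes from 0) of the 10 normoxic and 10 hyperoxic mice with at least 5 Neut 2 cells, with the symbol giving the age and bars the mean ± SD. The groups overlap in all 4 panels.

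Listed gene groups gave no call either. All 10 specific granule genes were tested, with a median log2 fold change of 0.01 beside 0.02 over all 592 genes. The 8 stefin A genes were all tested too (median 0.21), of which Gm5483, at 0.36 ± 0.18, had an unadjusted p under 0.05. Of 20 inflammatory mediators 9 were tested (median 0.02), with Ccl3 at −1.15 ± 0.65. Of 17 antioxidant genes, which defend cells against reactive oxygen, 4 passed the filter on low counts, and Gpx1 was at −0.30 ± 0.22 and Gsr at 0.19 ± 0.15. Of 15 interferon response genes 2 were tested, and Ifitm1 was at 1.46 ± 0.65 with an adjusted p of 0.888 (edgeR). None of 8 p53 target genes was deep enough to be tested. Of all listed genes 4 had an unadjusted p under 0.05 by edgeR, namely S100a8, Gm5483, Ifitm1 and Mmp8, the last at 0.41 ± 0.18.

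Few genes were called between P3 and P7. Of 592 genes 5 were called (0.845%, edgeR), with 1 higher (0.169%) and 4 lower (0.676%) at P7, and DESeq2 called 10 that included these 5. At an unadjusted p under 0.05 there were 90 genes by edgeR, beside 28 for hyperoxia. Ngp rose, from 11849 to 26454 CPM (median 17440) in 6 P3 mice to 22922 to 36735 CPM (median 30499) in 10 P7 mice, a log2 fold change of 0.77 ± 0.17 (SE, adjusted p = 0.0167, edgeR). Camp and Ltf had similar values of 0.59 ± 0.18 and 0.59 ± 0.18 that did not pass (adjusted p = 0.116 each, edgeR). Of the 10 specific granule genes Ngp was thus the 1 called, and the median of the list was 0.46 beside 0.01 over all genes.

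Cxcl2 fell by 2.38 ± 0.41 on the log2 scale (adjusted p = 0.00140, edgeR), from 1167 to 9382 CPM (median 5102) at P3 to 289 to 2423 CPM (median 803) at P7. It split the P3 mice by pool, with 8187 to 9382 CPM in the 3 mice of the shared pool and 1167 to 2017 CPM in the 3 mice of P3 pool 2, while the 5 P7 mice of the shared pool were at 289 to 2423 CPM. Egr1, an immediate early transcription factor, fell by 1.99 ± 0.34 (adjusted p = 0.00140, edgeR), and its 6 P3 mice (243 to 842 CPM) lay above all 10 P7 mice (51.3 to 198 CPM). Of all 592 genes, 0.169% had such separate ranges. Clec4d, a C-type lectin receptor of myeloid cells, fell by 1.38 ± 0.31 (adjusted p = 0.0167, edgeR) and the aspartic protease Asprv1 by 1.09 ± 0.23 (adjusted p = 0.0106, edgeR). Clec4d also split the P3 mice by pool, with 433 to 605 CPM in the shared pool and 195 to 295 CPM in P3 pool 2. At P7 it was at 74.2 to 151 CPM in the shared pool and 106 to 253 CPM in P7 pool 1. Of the inflammatory mediators, 2 of 9 tested were called, both lower, and all 9 had a negative sign, with a median of −1.18. Il1b was at −1.07 ± 0.46 and Ccl6 at −1.37 ± 0.36, neither of which passed. The summed mediators had a median of 8942 CPM at P3, 3019 CPM at P7 and 3018 CPM at P14 in Neut 2. Cells with under 1% of UMIs from Camp, Ngp and Ltf, in which Cxcl2 was at 7936 CPM against 1777 CPM in the others, were 25 of 90 Neut 2 cells at P3 and 8 of 105 at P7, and their part in this difference was not tested. In Neut 1 of the same mice 0 of 1922 genes were called between P3 and P7 by edgeR, and Cxcl2 was at −0.43 ± 0.24 there. The difference between the clusters was not tested.

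These calls depended on the mice. With the pool as a block 6 genes were called, all lower at P7, of which Cxcl2 (−2.81) and Clec4d (−2.10) were among the 5. The calls of Ngp (0.85, adjusted p = 0.0979), Egr1 (−1.71, adjusted p = 0.0606) and Asprv1 (−0.94, adjusted p = 0.0882) were lost under the block (edgeR). Without P3 pool 2, which was shallow, 15 were called, 4 of them shared, and Ngp was at 0.87 with an adjusted p of 0.0552 (edgeR). The count was 1 without P3 21% O2 mouse 3, 3 without P3 85% O2 mouse 3, 8 without P7 21% O2 mouse 2 or without P14 21% O2 mouse 2, 10 without P3 85% O2 mouse 5 and 13 without P3 21% O2 mouse 4.

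Stefin A genes were lower in the P14 mice than at P7. Of 592 genes 80 had an unadjusted p under 0.05 by edgeR. In all 13 were called (2.2%, edgeR), 4 higher (0.676%) and 9 lower (1.52%) at P14, and 7 of the 9 were stefin A genes. All 8 members were tested, 7 were called lower, and the median log2 fold change of the 8 was −1.37 beside −0.0016 over all genes. Together the 8 genes took 9.85% to 13.3% of the Neut 2 UMIs of the 10 P7 mice, 10.2% to 12.5% in the 6 P3 mice, and 2.10% to 8.27% in the 4 P14 mice (median 5.52%). No P14 mouse reached the lowest younger mouse. The P14 cells were not evenly low. Of the 48 Neut 2 cells at P14, 11 from 6 mice held 0.141% to 1.24% stefins, 6 normoxic and 5 hyperoxic, and the next cell was at 2.78%. No cell of the 90 at P3 or the 105 at P7 lay under 2%, a boundary set after the values were seen. The other 37 P14 cells had a median of 9.25%, below the medians of 11.3% at P3 and 12.7% at P7. In the 4 P14 mice of the fit, 4 of 7, 1 of 6, 0 of 9 and 3 of 7 cells lay under 2%. The 11 cells carried Neut 2 granule genes, with Camp, Ngp and Ltf at a median of 10.5% of UMIs against 4.49% in the other 37, and calgranulins at 28.4% against 23.4%. The part of these cells in the calls was not tested.

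Stfa1, the most abundant member, was at 4165 and 11384 CPM in the normoxic and 15220 and 14361 CPM in the hyperoxic P14 mice, and at 26234 to 38110 CPM (median 32854) at P7. It fell by 1.65 ± 0.23 on the log2 scale (adjusted p = 9.995e-05, edgeR), with ranges apart, beside 2.7% of all 592 genes with ranges apart. Gm5416 fell by 2.11 ± 0.31, 2010005H15Rik by 1.75 ± 0.38 and Stfa2l1 by 1.52 ± 0.23, each also with ranges apart (adjusted p = 0.000111, 0.00606 and 0.000118, edgeR). Gm5483 and BC100530 fell by 1.23 ± 0.25 and 1.16 ± 0.25. Stfa2 fell least of those called, by 0.78 ± 0.21 (adjusted p = 0.0423, edgeR). Stfa3, the member most enriched in Neut 2, was at −0.80 ± 0.25 and did not pass (adjusted p = 0.0943, edgeR). Calgranulins did not follow, with S100a8 at −0.18 ± 0.14 and S100a9 at 0.0035 ± 0.13, and none of the 10 specific granule genes was called.

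Neut 1 of the same 14 mice showed the same direction. Over all 12 mice of each age, including those with too few Neut 2 cells, the stefins of Neut 1 overlapped, at 2.84% to 6.74% (median 4.14%) at P14, 2.72% to 6.56% (median 4.81%) at P7 and 3.55% to 7.03% (median 5.18%) at P3. In Neut 1 of the same 14 mice, 6 of the 7 genes called lower in Neut 2 were called lower as well. Stfa1 was at −0.95 ± 0.21 in it (adjusted p = 0.0174, edgeR), and Stfa3 at −1.28 ± 0.34 (adjusted p = 0.0322, edgeR). Over all 12 mice of each age no gene was tested. The percent called between P14 and P7 in Neut 1 was 3.49%, with 1.72% lower. The comparisons share their mice and pools. Every P14 mouse in them came from P14 pool 1. In the other pool of that age, P14 pool 2, the stefins took 8.75% of the UMIs of 13 Neut 2 cells and 5.44% in Neut 1, against 5.76% and 3.38% in P14 pool 1. The pools of P3 and P7 mice were at 10.4% to 12.4% in Neut 2 and 4.28% to 5.99% in Neut 1. With mice of at least 3 Neut 2 cells, 4 genes were called, and with P14 pool 1 then left out 1 was called, Ubb, with Stfa1 at −0.34 (adjusted p = 0.888, edgeR).

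**Figure D5:**
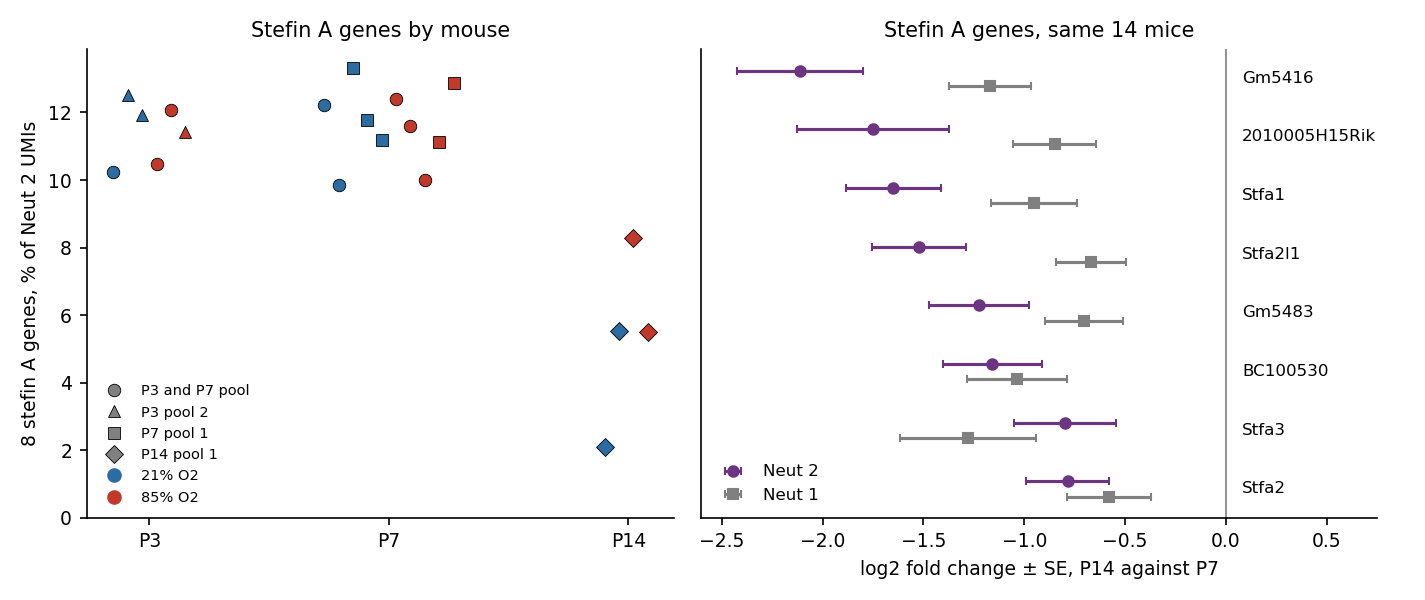
Left, the 8 stefin A genes as a percentage of Neut 2 UMIs in each of 20 mice by age (colour gives oxygen, symbol the pool), where the 4 P14 mice, all of P14 pool 1, lie at 2.10% to 8.27%. Right, log2 fold change ± SE of each gene at P14 against P7 in Neut 2 and Neut 1 of the same 14 mice, with all 16 values below 0.

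The 4 genes called higher at P14 had no shared list. Sparc, a matrix-binding glycoprotein, was at 312, 300, 298 and 136 CPM in the 4 P14 mice and at 0 to 114 CPM in the P7 mice, and rose by 2.28 ± 0.49 on the log2 scale (adjusted p = 0.00606, edgeR). In lung Sparc is known as a transcript of stromal cells, and its medians in Neut 1 were 308 CPM at P14 and 156 CPM at P7, a difference that did not pass there. The part of RNA from other cells in it was not tested. Lcp1, an actin-bundling protein of leukocytes, rose by 0.74 ± 0.18, guanine deaminase (Gda) by 0.83 ± 0.23 and the RNA-binding Larp4b by 1.19 ± 0.32. Apart from the stefins, 2 genes fell, ubiquitin B (Ubb) by 0.91 ± 0.19 and Ifrd1, a transcriptional regulator, by 2.03 ± 0.49 (adjusted p = 0.00606 and 0.0186, edgeR). Plac8, which made most of the monocyte list in Neut 2, was at 34.7 to 150 CPM in the P14 mice and 98.9 to 1753 CPM in the P7 mice, with −2.81 ± 0.79 (adjusted p = 0.0535, edgeR). The gelatinase Mmp9 and the formyl peptide receptor Fpr2 were at 0.84 ± 0.24 and 1.18 ± 0.34 and also just missed the threshold (adjusted p = 0.0546 each, edgeR). The count of 13 was 8 without P14 85% O2 mouse 1 and 22 without P3 85% O2 mouse 5, and Stfa1, Stfa2l1, Gm5416, Gm5483, BC100530 and 2010005H15Rik were called in each of the 20 fits that left out 1 mouse. The other calls held less often. Gda was lost in 11 of the 20 fits, Larp4b in 10 of the 19 that tested it and Stfa2 in 9, while Ifrd1 and Lcp1 were lost in 3 each and Sparc and Ubb in 1 each.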

How the data were processed

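Per the labels and the study's methods, the authors prepared lungs of 36 mice as pooled 3′ droplet libraries with MULTI-seq sample barcodes. They aligned and counted reads with Cell Ranger 3.0.2 on mm10, assigned cells to mice by barcode, filtered cells on genes detected and on mitochondrial percentage, took out contaminant clusters, and annotated 34 cell types in Seurat. The deposited values used here are raw UMI counts per gene and cell, UMI counts of the sample barcodes, the authors' mitochondrial percentage per cell, and the authors' annotation. The authors' cell cycle scores were used only through the phase they deposited. No doublet caller was run on the filtered cells. The 2 libraries of the shared pool were taken here to hold the same 12 mice, which the labels do not state. On this reading the mice formed 5 pools. The minimum of 5 cells per mouse, the members and the gene lists were chosen with earlier results of these data known.

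UMIs were summed per mouse over the cells of a type. Summed counts of 20 mice were tested with edgeR 4.0.16 (R 4.3.3; TMM, filterByExpr, quasi-likelihood test, Benjamini-Hochberg, age and oxygen in the model), with DESeq2 1.42.0 as an alternative. A call needed an adjusted p under 0.05 and detection in 10% of the cells of a group. The genes named in the text are those of the lists, the 10 highest and 10 lowest ratios of Neut 2 to Neut 1 among genes of at least 100 CPM, and up to 10 called genes per direction. Fcnb and Retnlg were named outside this rule, after their values were seen. Shares per mouse were compared by two-sided exact permutation tests (numpy 2.4.6), with adjustment over the 3 ages, over the 6 age pairs, or over 34 types for shares of all cells. Exact intervals and Spearman's rho came from scipy 1.17.1. Mice were separate animals, with each lung digested and tagged on its own, but those of a pool were mixed before the libraries were made. After the fit of age and oxygen, the median correlation of residuals was −0.06 within pools (47 pairs) and −0.05 between pools (143 pairs), a measure that cannot show the shift of a pool that alone stands for an age. Promoters were taken from RefSeq and gene positions from GENCODE vM21. The edgeR fits were also run on simulated counts that held no shifts between pools. All simulated libraries had the same mean profile apart from the changes put in, so that Neut 2 and Neut 1 did not otherwise differ. Of the 2-fold changes tested there, 88.3% were recovered for hyperoxia and 81.4% for P7 against P3. For P14 against P7 it was 68.5%, and for the interaction of cell type and oxygen 43.9%. These rates do not measure recovery in the real data. A member of 1 list is not reported here.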

Additional observations from a re-analysis of the deposited data

Results flagged for a closer look

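Of 56 groups of 4 to 10 mice checked for 1 value far from the rest, 2 were marked, and chance marks about 1 in 20. Cxcl2 in Neut 2 at P7 was highest in P7 21% O2 mouse 3, at 2423 CPM, with the nearest of the other 9 mice at 1339 CPM. Sparc in Neut 2 at P14 was lowest in P14 85% O2 mouse 2, at 136 CPM, with the nearest of the other 3 mice at 298 CPM.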

How the results depend on the processing

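Neut 2 is rare, so that depth and the number of mice per age limit these results: 592 genes were tested, 4 mice stood for P14, and a share rested on at most 27 cells per mouse. Over the settings tried, 157 values of comparisons stayed the same. For a tested difference this means its direction and side of the threshold. For a count of genes it means a change of at most 1.5 times. For a marker level it means a change smaller than its SD over mice. Further, 20 counts moved by over 1.5 times, 5 values lost the threshold, 1 gained it and 8 changed sign, none of which had passed the test. Of the values of single named genes 362 kept their direction and side of the threshold, 85 lost the threshold and 0 reversed. For the exceptions given here the cause was not tested. The 3 settings that leave out P3 pool 2, P14 pool 1 or P14 pool 2 were chosen after seeing the data.

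For Neut 2 as a share of all cells, the difference with hyperoxia was −0.0252 points at P3 without the shared pool, and −0.102 points at P14 as a percentage of myeloid cells. Between P14 and P7 in normoxia it was −1.55 points of myeloid cells (adjusted p = 0.0742, exact permutation test). Without the shared pool it was −0.597 points of all cells (exact permutation test, adjusted p = 0.0810, smallest unadjusted p 0.0119 with 3 mice against 6). In hyperoxia P7 against P3 gave 0.00421 points without the mouse with the fewest cells and 0.219 points without the shared pool, where P14 against P3 gave 0.0407 points. For Neut 2 as a percentage of neutrophils without the shared pool, hyperoxia at P7 gave −9.43 points (exact permutation test, adjusted p = 0.15, smallest unadjusted p 0.1). In that setting normoxic P7 against P3 gave 8.62 points (exact permutation test, adjusted p = 0.3, smallest unadjusted p 0.1 with 3 mice against 3). Normoxic P14 against P7 gave −9.39 points (exact permutation test, adjusted p = 0.0714, smallest unadjusted p 0.0119 with 3 mice against 6). Hyperoxic P14 against P3 gave 0.216 points there, and the difference of the hyperoxia effects between P14 and P3 was 0.989 points. With neutrophils of at least 1% Ltf, Camp and Ngp, normoxic P14 against P3 gave 0.0621 points. Without the mouse with the fewest cells, hyperoxic P14 against P7 gave −5.83 points and passed (exact permutation test, adjusted p = 0.0476).

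Genes called for hyperoxia numbered 3 with no filter on low counts (Hbb-bs, Sod2 and Hist1h1e) and 1 with mice of at least 3 cells (Ifitm2), and the interaction with cell type gave 7 with no filter and 1, Camp, with mice of at least 10 cells. These genes are named because so few were called, after their values were seen. Between P7 and P3 there were 10 calls by DESeq2, 11 with no filter, 0 with mice of at least 10 cells (edgeR, with 94 at an unadjusted p under 0.05), 1 with mice of at least 3 cells and 15 without P3 pool 2. Between P14 and P7 there were 4 calls with mice of at least 3 cells and, from these mice, 1 when P14 pool 1 was left out and 15 when P14 pool 2 was left out. Leaving out 1 mouse at a time gave 0 to 0 calls for hyperoxia, 1 to 13 for P7 against P3, 8 to 22 for P14 against P7 and 0 to 1 for the interaction. With the pool as a replicate block there were 0 calls for hyperoxia, 6 for P7 against P3 and 0 for the interaction, and within-pool permutation changed no call on shares. Not run were P14 against P7 with the pool block, which could not be estimated, P14 against P7 with at least 10 cells, for which there was no P14 mouse, and within-pool permutation between ages.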
